A study of Mus musculus with 6 samples.

Results

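FOXC2 binding was examined at 10 genes of the apical and PAR polarity system, of 21911 protein-coding genes of GENCODE M21: *Crb2* and *Crb3* of the Crumbs complex, *Pard3*, *Pard3b*, *Pard6a*, *Pard6b*, *Prkci* and *Prkcz* of the PAR complex, and *Scrib* and *Llgl1* of the Scribble module. Peaks that touched the gene body, or the 50 kb on either side of the gene start, were assigned to the gene on GRCm38. Overlapping peaks of the ADR and PBS lists were merged into sites, and these genes held 131 of the 53255 sites of the series. All 10 genes had at least 1 peak in each list. The ChIP-seq was done on podocytes isolated by FACS from adult mice with the mTmG reporter. In these mice a Cre active in podocytes switches membrane fluorescence to green, and the sort was meant to leave out cells in which the Cre was not active. The purity of the sort is not given in the sources used here. The ADR mice received adriamycin (ADR), a podocyte toxin, at 18 mg/kg on days 0 and 7, and the PBS mice received PBS on the same days. Both groups carried the Cre and the reporter, podocytes were sorted on day 9, and each group had 3 samples. The authors pooled the samples of each group into 1 peak list.

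Podocytes are polarized epithelial cells whose foot processes are joined by the slit diaphragm, and their apical and basolateral membranes are kept apart by sets of proteins that antagonize each other. The apical Crumbs proteins and the PAR complex, in which PAR3 and PAR6 scaffold an atypical protein kinase C (aPKC), mark the apical domain and the junction, and the Scribble module marks the basolateral domain. Loss of *Crb2* or of *Prkci* in mouse podocytes is known to disrupt foot processes, and variants of human *CRB2* cause nephrotic syndrome. FOXC2 is a forkhead transcription factor that podocytes need to differentiate.

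The sequences that carry the main results run from 100 bases before to 100 bases after the summit of a site on GRCm38, on the plus strand and 5′ to 3′. Capitals mark exact matches, on either strand, to any of 5 motifs of podocyte or injury factors. These were forkhead (NNAAANA, where the first N is A or G and each other N is C or T), WT1 (GNGGGGGAG, GNGGGGGCG, GNGTGGGAG or GNGTGGGCG), TEAD (ACATTCCA, ACATTCCT, GCATTCCA or GCATTCCT), AP-1 (TGACTCA or TGAGTCA) and LMX1B (TTAATTA or TAATTAA). The AP-1 spellings are reverse complements of each other, as are those of LMX1B. Shown are the *Crb2* site with the highest PBS fold at these genes and the *Crb2* site with the largest ratio of ADR to PBS fold, an intronic *Pard3* site with a higher ADR fold and the strongest ADR-only site of *Pard3*. They are followed by the strongest site of *Pard3b*, the intronic *Pard6b* site with the highest ADR fold at these genes, the strongest ADR-only site at *Prkci*, the *Prkci* site with the smallest ratio, and a PBS-only site of *Prkcz*.
Crb2 strongest, chr2:37788312-37788512: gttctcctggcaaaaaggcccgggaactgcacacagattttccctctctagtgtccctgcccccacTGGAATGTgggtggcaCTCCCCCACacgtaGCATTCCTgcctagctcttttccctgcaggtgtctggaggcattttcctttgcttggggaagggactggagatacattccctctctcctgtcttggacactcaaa
Crb2 largest ratio, chr2:37796198-37796398: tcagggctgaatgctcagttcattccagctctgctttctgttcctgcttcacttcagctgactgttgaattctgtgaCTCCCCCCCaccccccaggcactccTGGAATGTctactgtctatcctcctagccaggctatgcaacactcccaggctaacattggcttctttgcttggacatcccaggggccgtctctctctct
Pard3 shared, chr8:127129027-127129227: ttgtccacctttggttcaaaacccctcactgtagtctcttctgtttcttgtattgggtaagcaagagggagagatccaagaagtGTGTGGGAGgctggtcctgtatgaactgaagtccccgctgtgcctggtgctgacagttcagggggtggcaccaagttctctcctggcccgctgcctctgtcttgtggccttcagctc
Pard3 ADR only, chr8:127202317-127202517: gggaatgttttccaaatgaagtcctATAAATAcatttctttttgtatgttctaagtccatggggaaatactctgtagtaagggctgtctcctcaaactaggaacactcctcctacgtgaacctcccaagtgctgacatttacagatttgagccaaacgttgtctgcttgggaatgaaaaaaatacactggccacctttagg
Pard3b strongest, chr1:61642032-61642232: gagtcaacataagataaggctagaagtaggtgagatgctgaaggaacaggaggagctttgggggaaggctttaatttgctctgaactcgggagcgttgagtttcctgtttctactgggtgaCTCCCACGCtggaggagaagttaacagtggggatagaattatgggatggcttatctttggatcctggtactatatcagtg
Pard6b highest ADR fold, chr2:168096826-168097026: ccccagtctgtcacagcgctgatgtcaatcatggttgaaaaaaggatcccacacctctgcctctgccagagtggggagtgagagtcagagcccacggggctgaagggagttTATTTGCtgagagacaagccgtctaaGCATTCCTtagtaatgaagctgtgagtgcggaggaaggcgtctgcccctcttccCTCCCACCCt
Prkci ADR only, chr3:30956726-30956926: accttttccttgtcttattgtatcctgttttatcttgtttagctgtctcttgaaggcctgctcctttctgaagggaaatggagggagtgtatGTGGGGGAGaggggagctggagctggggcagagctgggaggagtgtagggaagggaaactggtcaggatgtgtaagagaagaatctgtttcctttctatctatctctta
Prkci smallest ratio, chr3:31022941-31023141: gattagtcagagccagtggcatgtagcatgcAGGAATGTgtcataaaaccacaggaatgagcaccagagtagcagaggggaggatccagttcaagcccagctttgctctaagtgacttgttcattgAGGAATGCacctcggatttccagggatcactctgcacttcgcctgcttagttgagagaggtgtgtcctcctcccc
Prkcz PBS only, chr4:155281276-155281476: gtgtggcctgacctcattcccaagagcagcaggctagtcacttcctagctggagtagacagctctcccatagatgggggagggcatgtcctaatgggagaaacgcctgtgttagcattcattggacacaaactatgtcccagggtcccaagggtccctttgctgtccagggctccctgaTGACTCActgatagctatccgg

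Both *Crb2* windows hold a WT1 match and at least 1 TEAD match. The *Pard6b* window holds forkhead, TEAD and WT1 matches, the ADR-only window of *Pard3* holds only a forkhead match, and the PBS-only window of *Prkcz* holds only an AP-1 match. All windows shown hold a match, and that of *Prkcz* was chosen with its AP-1 match known. The strongest PBS-only site, in the *Pard6b* intron at 168086923 to 168087254, held no match in its window and is not shown. The same holds for the *Pard3* sites at 127229409 to 127229892 and at 127400398 to 127400968. A match is a stretch of letters and does not show which factor was bound.

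The ADR list held 40067 peaks and the PBS list held 41075. The strength of a peak is the authors' fold enrichment over the control of its own list, with a median of 7.42 in the ADR list and 6.53 in the PBS list and a maximum of 49.1 in the ADR list and 80.6 in the PBS list. With 1 pooled list for each condition, the values have no replicate error, the conditions could not be tested against each other, and the depth of the lists is unknown. Fewer cells with FOXC2 at a site and less FOXC2 per cell cannot be told apart in such lists. As a check of the labelled cell type, all 6 podocyte markers, among them *Nphs1*, *Podxl* and *Wt1*, had a peak within 10 kb of their start in both lists, with 20 ADR and 19 PBS peaks. Of 6 endothelial markers 1 had a peak in each list, and *Pecam1*, *Cdh5* and *Tek* had none. Of 4 mesangial markers 2 had an ADR peak and 4 a PBS peak, with 9 ADR and 12 PBS peaks. Of 5 proximal tubule markers 3 had an ADR peak and 1 a PBS peak, with 6 ADR peaks and 1 PBS peak. Of 5 distal and collecting duct markers and of 4 immune markers, 1 each had a peak in each list. The part of other cell types in the results below was not tested.

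The polarity genes together had 106 ADR peaks and 86 PBS peaks. Of their 131 sites, 59 were called in both lists, 47 were ADR only and 25 were PBS only. No PBS peak overlapped 44.3% of the ADR peaks (exact Clopper-Pearson 95% interval 34.7 to 54.3, counting error only), against 32.3% over the whole ADR list. No ADR peak overlapped 29.1% of the PBS peaks (19.8 to 39.9), against 33.1% over the whole PBS list. The ADR-only peaks were thus a larger share over these windows than in the series, and the PBS-only peaks a share near that of the series. Within 10 kb of the starts the ADR-only share was 24.0%, below that of the whole list, against 18.4% of all ADR peaks that near a coding gene start. The long genes *Pard3* and *Pard3b* held 25 of the 47 ADR-only sites and 10 of the 25 PBS-only sites. Without these genes, an alternative chosen after seeing the data, the other 8 genes had 63 ADR peaks and 57 PBS peaks, and the ADR-only share was 34.9%.

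More ADR than PBS peaks were counted at *Crb2*, *Pard3*, *Pard3b*, *Pard6b* and *Prkci*, which makes 5 of 10 genes, against 28.5% of the 17117 coding genes with a peak. Fewer ADR peaks were counted at *Crb3*, *Prkcz*, *Scrib* and *Llgl1*, against 44.2% of coding genes, and *Pard6a* had 4 peaks in each list. The largest differences were at *Pard3*, with 26 ADR and 18 PBS peaks, *Pard3b*, with 17 ADR and 11 PBS peaks, *Crb2*, with 13 ADR and 8 PBS peaks, and *Prkci*, with 8 ADR and 3 PBS peaks. Genes of 500 kb or more, such as *Pard3* and *Pard3b*, had more ADR peaks in 51.6% of cases and fewer in 29.6%. Within 10 kb of the start alone, each list had 25 peaks at the 10 genes, and 3 genes, *Crb2*, *Pard3* and *Prkci*, had more ADR peaks. The share of coding genes with more ADR peaks was not taken in that smaller window.

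**Figure D1:**
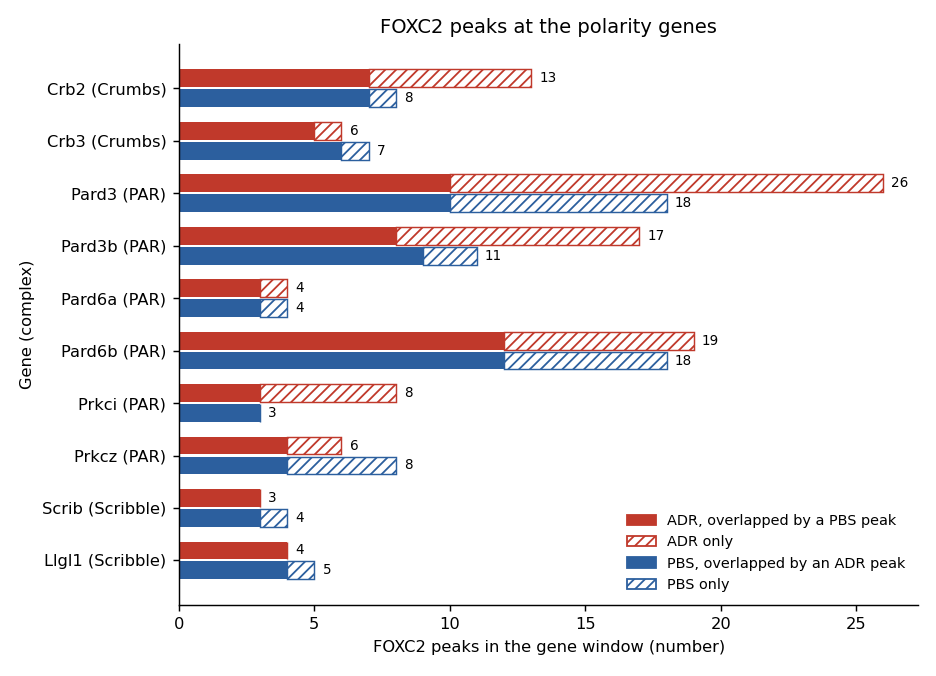
Number of FOXC2 peaks (horizontal axis) in the window of each polarity gene, for the ADR list (upper bar, red) and the PBS list (lower bar, blue), 1 pooled list per condition and so without error bars. Filled lengths are peaks that a peak of the other list overlaps and hatched lengths are peaks that none does; *Pard3* has 26 ADR and 18 PBS peaks, and *Prkci* has no hatched PBS length.

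At the 59 sites called in both lists, the strongest ADR fold was above the strongest PBS fold at 40. Over the series it was above at 14050 of 26703 such sites. The ADR fold was at least 1.4 times the PBS fold (higher) at 24 sites, or 40.7%, against 27.6% of the 26703 such sites of the series. It was lower by the same factor at 9 sites, or 15.3%, against 21.2% in the series. The factor of 1.4 is the threshold of the study's own differential analysis, used here as a fixed cut and not as a test. At 11 sites the ADR fold was at least 2 times the PBS fold, against 12.9% in the series. At no site was the PBS fold 2 times the ADR fold, and the series share of such sites was not taken. The log2 ratio of ADR to PBS fold had a median of 0.31 and ran from −0.87 to 2.47, and its median over the series was 0.046. Within 10 kb of the starts the median was 0.016, with 7 sites higher and 2 lower. No series value was taken for shared sites that near a coding gene start. A fold of 20 or more was found at 16 ADR peaks, or 15.1%, against 11.2% of the ADR list, and at 5 PBS peaks, or 5.81%, against 7.54% of the PBS list. The highest single fold at these genes, 44.5, was a PBS fold. With each PBS fold replaced by the ADR fold of the same rank, an alternative added after seeing the data, the median log2 ratio of all shared sites fell by 0.20, that of the polarity genes was 0.14, and 19 sites were higher and 12 lower, or 61.3% higher among those past the factor, against 72.7% as deposited. Over all shared sites of the series that share was 39.8%, against 56.5% as deposited, with 20.9% of sites higher, 31.5% lower and a median log2 ratio of −0.15. The series thus turned toward lower ADR folds on that scale, while the polarity genes still had more higher than lower sites.

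**Figure D2:**
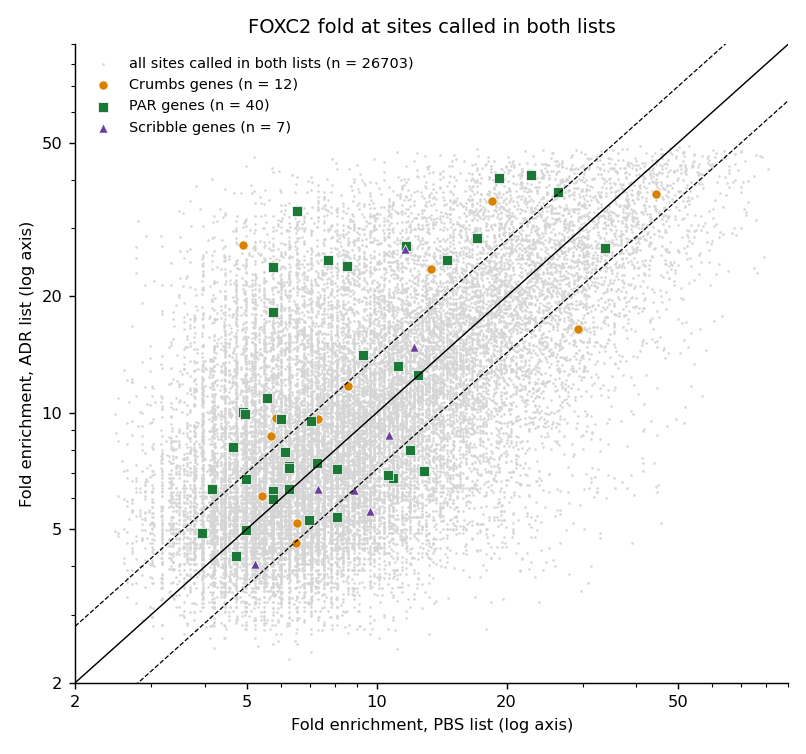
Fold enrichment in the ADR list (vertical, log axis) and in the PBS list (horizontal, log axis) at each site called in both lists, with all 26703 sites in gray and the 12 Crumbs, 40 PAR and 7 Scribble sites in color. The solid line is equality and the dashed lines a ratio of 1.4 either way; 24 sites of the polarity genes lie above the upper dashed line and 9 below the lower one.

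*Crb2*, whose product is the Crumbs protein of the podocyte apical and foot process membrane, is on chromosome 2 (37776249 to 37799103, plus strand). It had 13.0 ADR and 8.0 PBS peaks per 100 kb of window, against a median of 2.0 over coding genes in each list, and *Crb2* was the nearest coding gene start to all 14 of its sites. The intronic site at 37788143 to 37789321, 12.2 kb into the gene, had a fold of 36.8 in the ADR list and 44.5 in the PBS list, which is the highest PBS fold at any of the 10 genes. A second intronic site, at 37784349 to 37784932, had a fold of 35.2 in the ADR list and 18.5 in the PBS list. Farther in, the site at 37795909 to 37796611, 20.05 kb into the gene, had a fold of 27.2 in the ADR list and 4.89 in the PBS list, a 5.56-fold ratio and the largest at the polarity genes. At this last site the fold stood above 94.6% of ADR peaks in its own list, but only above 24.5% of PBS peaks in the PBS list, and the peak was 703 bp wide in the ADR list and 207 bp wide in the PBS list. The site beyond the gene end at 37802677 to 37803174, in an intron of *Dennd1a*, had a fold of 23.6 in the ADR list and 13.4 in the PBS list. In all, 4 of the 7 shared sites were higher, counting an exonic site described below, and none was lower. The site that was strongest in the PBS list was not among the higher ones.

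The other shared *Crb2* sites had folds of 5.18 to 11.7 in the ADR list and 5.69 to 8.59 in the PBS list. They were weaker than the 4 sites with positions given above in the ADR list but not than all 4 in the PBS list. Among them the exonic site at 37791156 to 37791498 was higher, with a fold of 8.70 in the ADR list and 5.69 in the PBS list. A peak over the *Crb2* start itself was called only in the ADR list, with a fold of 3.13, among the weakest of that list. The strongest of the 6 ADR-only sites, at 37799075 to 37799614 at the gene end, had a fold of 13.1, and the others 3.13 to 4.71. The only PBS-only site, 12.4 kb upstream, had a fold of 7.56. The larger number of ADR peaks at *Crb2* was thus made largely of weak peaks, while the strong sites in the gene body were called in both lists.

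*Crb3*, which encodes the short Crumbs protein of most epithelia, had 6 ADR and 7 PBS peaks, and all 7 of its sites lay nearer the start of another coding gene. The strongest, at the *Khsrp* promoter (chromosome 17, 57031400 to 57032505), had a fold of 16.5 in the ADR list and 29.2 in the PBS list. The site 1.45 kb downstream of the *Crb3* start had a fold of 9.69 in the ADR list and 5.83 in the PBS list. These sites differed in opposite directions, and in a window with 8 other coding genes they cannot be assigned to *Crb3* alone.

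*Pard3* encodes PAR3, the scaffold that brings PAR6 and aPKC to cell junctions, and spans 548 kb of chromosome 8 (127063893 to 127612286, plus strand). *Pard3* was the nearest coding gene start to all 34 of its sites, and 33 of their summits lay inside the gene. The site at the gene start had near-equal folds, 6.34 in the ADR list and 6.27 in the PBS list. The site at 127400398 to 127400968, in an untranslated exon of shorter *Pard3* transcripts, had a fold of 33.4 in the ADR list and 6.53 in the PBS list. In an intron, the site at 127229409 to 127229892 had a fold of 23.8 in the ADR list and 5.75 in the PBS list. A second promoter site, at 127355307 to 127355618 near the start of a shorter *Pard3* transcript, was ADR only with a fold of 9.38. The site at the gene start thus barely differed between the lists, while shared sites deep in the gene differed by 5.11-fold and 4.14-fold.

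The intronic *Pard3* site at 127128820 to 127129333, the one shown above, had a fold of 24.8 in the ADR list and 7.73 in the PBS list. The site at 127429822 to 127430307 had a fold of 18.2 in the ADR list and 5.75 in the PBS list. The site at 127184023 to 127184430 had a fold of 10.1 in the ADR list and 4.90 in the PBS list. In all, 6 of the 10 shared *Pard3* sites were higher, none was lower, and all 6 lay more than 50 kb from the gene start. PBS folds at *Pard3* did not exceed 8.91, whereas 7 ADR folds were 10 or more.

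The 16 ADR-only sites of *Pard3* had folds of 3.22 to 13.9 with a median of 6.11, and 14 of them lay more than 50 kb downstream of the start. The 8 PBS-only sites had folds of 3.69 to 8.91 with a median of 4.82, and 7 of them lay as far. The ADR-only site shown above, at 127202171 to 127202615, had a fold of 13.9. A forkhead match was found at 8 of the 16 ADR-only sites, and at 36.7% of all ADR-only sites of the series.

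*Pard3b* encodes a PAR3-like scaffold and spans 1003 kb of chromosome 1 (61638824 to 62642284, plus strand). In contrast to *Pard3*, its strongest sites were at the gene start. The promoter site at 61638610 to 61639244 had a fold of 23.9 in the ADR list and 8.53 in the PBS list. The intronic site at 61641800 to 61642466, 3.31 kb into the gene, had a fold of 40.5 in the ADR list and 19.2 in the PBS list. The 6 other shared sites had folds of 5.28 to 13.2 in the ADR list and 4.98 to 11.2 in the PBS list, none of them higher, and the site 696 kb into the gene was lower, with 6.78 in the ADR list and 10.9 in the PBS list. The 9 ADR-only sites had folds of 5.01 to 12.8, and 7 lay more than 50 kb from the start, where 1 of the 2 PBS-only sites lay. The last 5 sites of the gene were nearer the start of *Nrp2* than that of *Pard3b*.

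**Figure D3:**
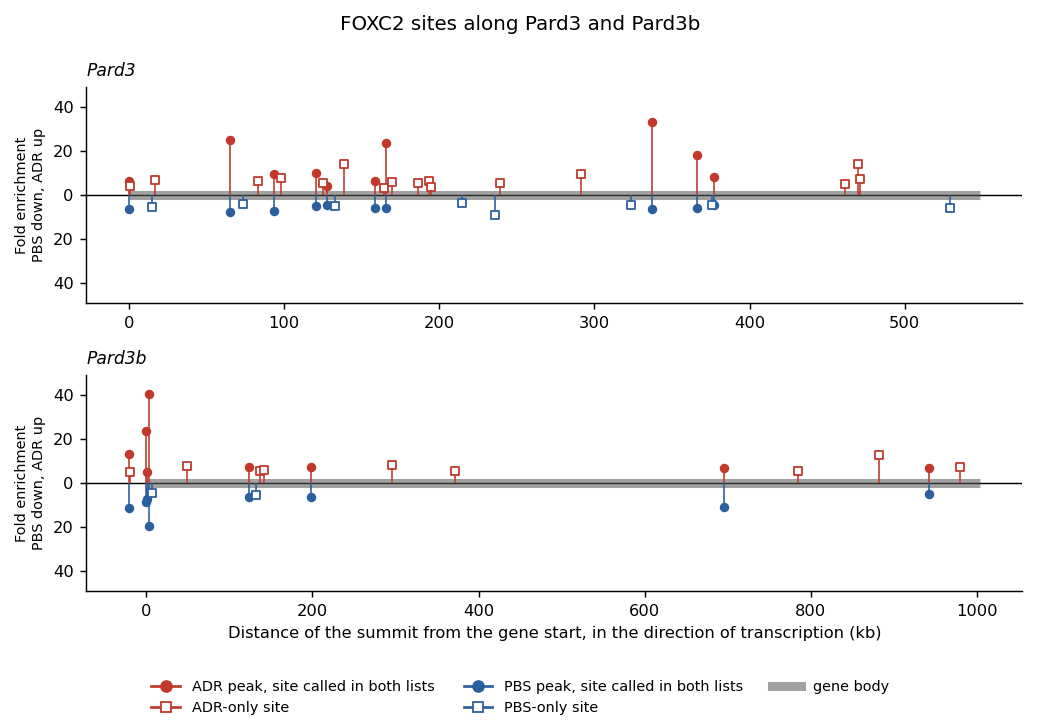
Fold enrichment (vertical) of FOXC2 sites along *Pard3* (top) and *Pard3b* (bottom) against the distance of the summit from the gene start in kb, with ADR folds drawn upward in red and PBS folds downward in blue. Filled circles are sites called in both lists, open squares are sites of 1 list, and the gray bar is the gene body; tall ADR lines over short PBS lines stand deep within *Pard3* but at the start of *Pard3b*.

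*Pard6b* encodes a PAR6 adaptor, which couples CDC42 to aPKC, and had the densest FOXC2 binding of the 10 genes, with 19 ADR and 18 PBS peaks in its 100 kb window. The promoter site (chromosome 2, 168080471 to 168081227) had a fold of 37.3 in the ADR list and 26.3 in the PBS list. Within the gene, the intronic site at 168096488 to 168097250 had a fold of 41.3 in the ADR list, the highest ADR fold at these genes, and 22.8 in the PBS list. The upstream site at 168072233 to 168073386 had a fold of 26.8 in the ADR list and 33.9 in the PBS list. Strong sites of *Pard6b* thus differed in direction, with the gene start and the intron higher by 1.42-fold and 1.81-fold and the upstream site, 8.04 kb from the start, below its PBS fold but within the factor of 1.4.

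Downstream of *Pard6b*, the site at 168123510 to 168124260 had a fold of 27.0 in the ADR list and 11.7 in the PBS list. Of the 12 shared sites 6 were higher and 2 lower. *Pard6b* also had the strongest PBS-only sites of the polarity genes, with folds of 14.5 in its intron (168086923 to 168087254) and 14.0 at 17.2 kb upstream, while its 7 ADR-only folds were 4.33 to 10.9. *Pard6a*, which encodes another PAR6, had 4 peaks in each list, and its 3 shared sites stayed within the factor of 1.4. The strongest of them had a fold of 7.16 in the ADR list and 8.07 in the PBS list, and all 5 sites were nearer the start of another coding gene, such as *Acd* and *Enkd1*.

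*Prkci* encodes aPKC iota, the PAR complex kinase that podocytes depend on, and had 5 ADR-only sites and no PBS-only site. The site at its start (chromosome 3, 30995410 to 30996363) had a fold of 14.1 in the ADR list and 9.27 in the PBS list. The intronic site at 31022792 to 31023539 had a fold of 7.06 in the ADR list and 12.9 in the PBS list, the smallest ratio at the polarity genes. The third shared site, at the *Phc3* promoter, had a fold of 5.39 in the ADR list and 8.07 in the PBS list. Of the shared *Prkci* sites, then, only that at the gene start was higher, and both others were lower.

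The ADR-only sites of *Prkci* were strong for their class. In the introns, the site at 31000029 to 31000482 had a fold of 12.9 and the site at 31012763 to 31013235 a fold of 14.8. The strongest ADR-only site of all polarity genes, at 30956640 to 30956987 in an intron of the neighbor *Phc3*, had a fold of 18.1. The median of the 5 was 12.9, against 5.96 over the ADR-only sites of all 10 genes and 5.96 over those of the series.

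*Prkcz*, which encodes aPKC zeta, had 6 ADR and 8 PBS peaks, yet none of its 4 shared sites had a lower ADR fold. The site at its start had near-equal folds, 7.40 in the ADR list and 7.29 in the PBS list. A cluster of 5 sites spanned 3.40 kb of an intron (chromosome 4, 155280282 to 155283685). Its first strong site had a fold of 28.4 in the ADR list and 17.1 in the PBS list. Its second strong site, at 155282097 to 155283037, had a fold of 24.9 in the ADR list and 14.5 in the PBS list. Beside these, the cluster held 3 PBS-only sites with folds of 5.21, 4.55 and 2.70, so that more but weaker PBS peaks and fewer but stronger ADR peaks were called in the same stretch. Nearer the start, the site at 155301954 to 155302504 had a fold of 10.9 in the ADR list and 5.57 in the PBS list. The start of *Faap20* was nearer than the start of the *Prkcz* gene record to 7 of the 10 sites, among them this site and the whole cluster. All of these lay inside *Prkcz*, and other annotated *Prkcz* transcripts started nearer to them than *Faap20*. Such a start was 1126 bp from this site, against 52495 bp for *Faap20*. For the cluster it was 7672 to 10369 bp away, against 30912 to 33609 bp.

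**Figure D4:**
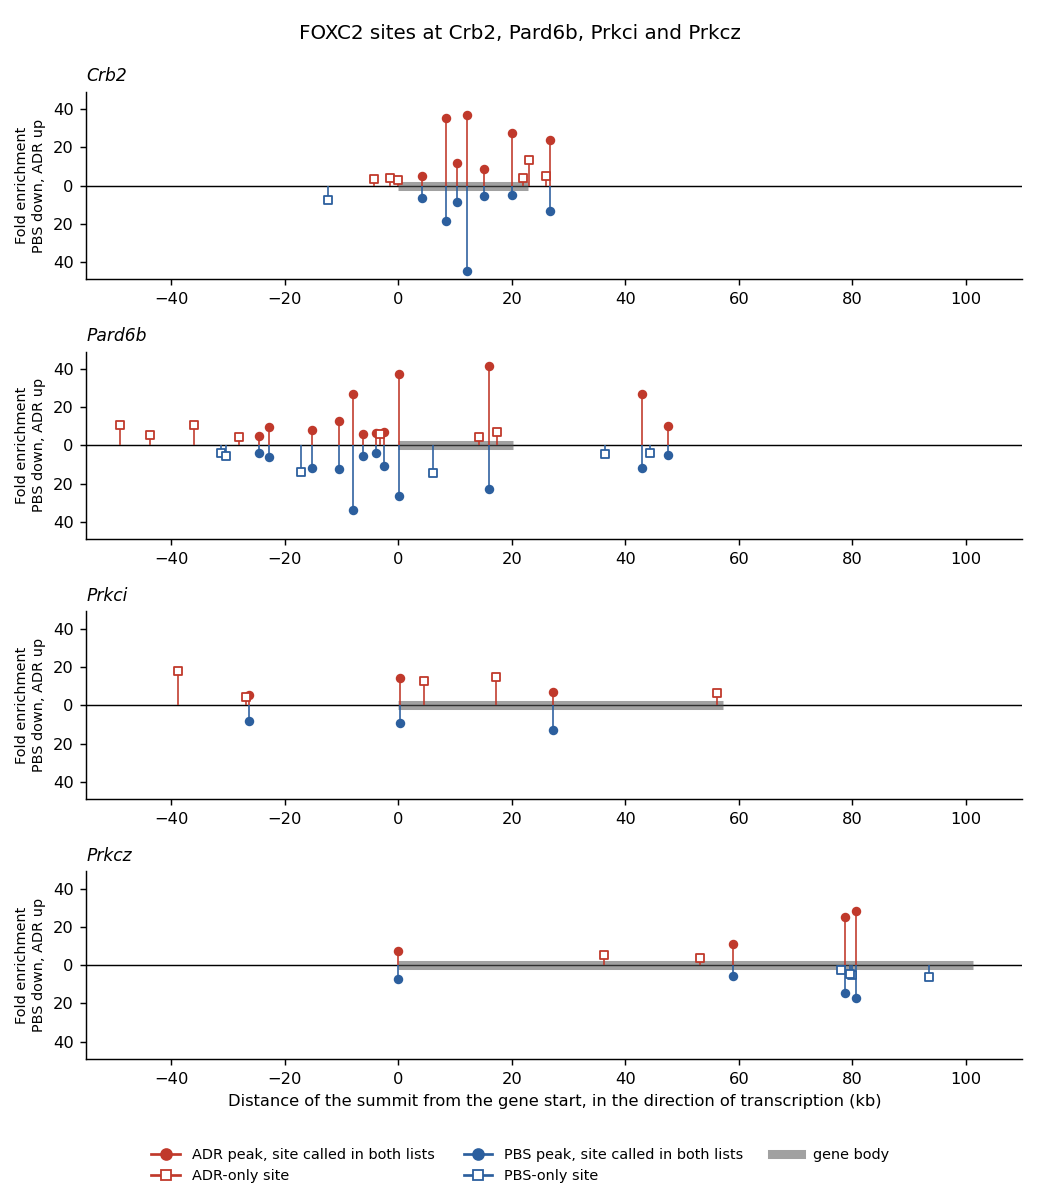
Fold enrichment (vertical) of FOXC2 sites at *Crb2*, *Pard6b*, *Prkci* and *Prkcz* against the distance of the summit from the gene start in kb, with ADR folds drawn upward in red and PBS folds downward in blue. Filled circles are sites called in both lists, open squares sites of 1 list and gray bars gene bodies; *Prkci* has 5 open red squares and no open blue one, and 3 of the open blue squares of *Prkcz* stand between or beside its tall pair.

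*Scrib*, the scaffold of the basolateral module, and *Llgl1*, a substrate that aPKC keeps off the apical membrane, had no ADR-only site. Together they had 7 ADR and 9 PBS peaks. Of all sites of the series, 24.3% were ADR only. The site at the *Scrib* start had a fold of 8.75 in the ADR list and 10.7 in the PBS list. The sites at the *Llgl1* start had folds of 5.55 and 4.07 in the ADR list, against 9.62 and 5.23 in the PBS list. At the starts of both Scribble module genes, then, the ADR folds were below the PBS folds, past the factor of 1.4 only at the *Llgl1* site 690 bp upstream. Over the series the ADR fold was above the PBS fold at 4795 of 10371 shared promoter sites, so an ADR fold below is not particular to these genes. The strongest sites in their windows were at promoters of other genes, with a fold of 26.5 in the ADR list and 11.6 in the PBS list at *Nrbp2*, 21.9 kb from the *Scrib* start, and 14.8 in the ADR list and 12.2 in the PBS list at *Mief2*, 28.6 kb from the *Llgl1* start.

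The differences varied with the position of a site in the gene. Of 21 promoter sites (1 kb upstream to 100 bp downstream of an annotated transcript start), 18 were called in both lists, 2 were ADR only, against 8.9% of the promoter sites of the series, and 1 was PBS only, against 17%. Of the 18, 4 were higher and 6 lower, or 22.2% higher and 33.3% lower, with a median log2 ratio of −0.10, and in the series 16.7% of shared promoter sites were higher and 21% lower. At 11 of the 21 promoter sites the start of another coding gene was nearest, among them all 4 at *Crb3*, and these held 2 of the higher and 4 of the lower sites. At the other 10, where the start of the polarity gene was nearest, 8 were called in both lists, with 2 higher and 2 lower, and 2 were ADR only. Of 80 intronic sites, 34 were ADR only, or 42.5% against 31.7% in the series, and 16 were PBS only, against 27.1%. *Pard3* held 31 of these 80 sites and *Pard3b* 18, and the intronic shares without these long genes were not taken. Of the 30 shared intronic sites 14 were higher and 2 lower, or 46.7% higher against 36.2% in the series and 6.67% lower against 20%, and their median log2 ratio was 0.44 against 0.18 in the series. Of 23 intergenic sites, 8 were ADR only, against 27.9% in the series, and 6 were PBS only, against 31.5%. Of the 9 shared intergenic sites 4 were higher and 1 lower, against 33.2% higher and 24.4% lower in the series. Of 7 exonic sites 3 were ADR only, against 23.8% in the series, 2 were PBS only, against 28.4%, and both shared ones were higher, against 28.2% higher and 20.2% lower. Few promoter sites in these windows were thus called in 1 list only, and 10 of the 18 called in both were nearer the start of a neighbor. Of the 47 ADR-only sites 34 were in introns, or 72.3%, against 57.9% of the ADR-only sites of the series, and introns held 61.1% of all sites of the polarity genes, against 44.5% in the series. *Pard3* and *Pard3b* held 25 of the 47 ADR-only sites, so the intronic share of ADR-only sites rests largely on these long genes. Some intronic sites lay in introns of other genes, such as *Dennd1a* and *Phc3*.

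**Figure D5:**
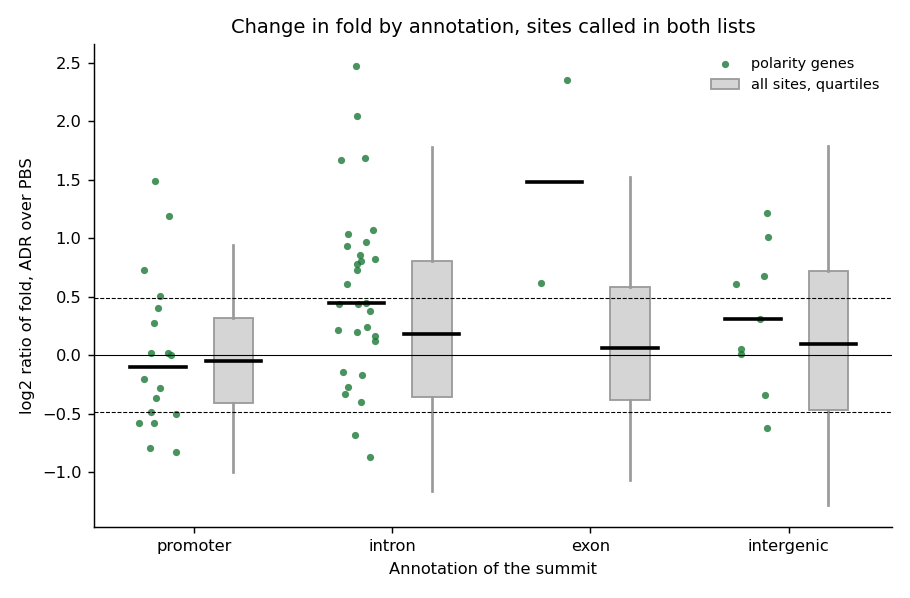
The log2 ratio of ADR to PBS fold (vertical) at sites called in both lists, by annotation of the summit, as a green point for each site of the polarity genes with a black line at the median, and beside them the quartiles (box), median (black line) and range from the 5th to the 95th percentile (gray line) of all sites of the series. Dashed lines mark a ratio of 1.4 either way; promoter points center at −0.10, with 18 sites, and intronic points at 0.44, with 30 sites.

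Within 100 bp of the summit, a WT1 match was found at 38 of the 131 sites, or 29.0% (exact 95% interval 21.4 to 37.6), against 26.7% of all sites and 4.96% of windows of equal length 1 kb to each side. A forkhead match was found at 22 sites, or 16.8% (10.8 to 24.3), against 24.0% of all sites and 26.3% of the flanking windows. TEAD was found at 9.16% against 8.66% of all sites, AP-1 at 6.87% against 7.37%, and LMX1B at 1.53% against 2.97%. The WT1 letters were thus found more often at the sites than beside them, and the forkhead letters were not. The same held over all sites of the series together, where 5.50% of flanking windows held a WT1 match and 28.2% a forkhead match. It did not hold for the ADR-only sites of the series, 36.7% of which had a forkhead match, against 30.5% of their flanking windows. At the ADR-only sites of the polarity genes both shares were 29.8%. Within 50 bp of the summit, the forkhead share of the polarity gene sites was 9.92% against 12.8% of all sites. Of the 24 higher sites 14 had a WT1 match, or 58.3% (36.6 to 77.9), against 30.3% of the higher sites of the series, and by gene they were 3 of 4 at *Crb2*, 0 of 1 at *Crb3*, 2 of 6 at *Pard3*, 2 of 2 at *Pard3b*, 3 of 6 at *Pard6b*, 1 of 1 at *Prkci*, 3 of 3 at *Prkcz* and 0 of 1 at *Scrib*. Over all 59 shared sites the WT1 share was 40.7%, against 33.3% in the series. Of the 9 lower sites 2 had a WT1 match, against 38.1% in the series, where the share was thus smaller at higher than at lower sites. Within 50 bp of the summit 41.7% of the 24 higher sites had one, against 25.3% in the series. A forkhead match was found at 14 of the 47 ADR-only sites, or 29.8%, and at 1 of the 25 PBS-only sites, against 36.7% and 20.4% in the series. An AP-1 match was found at 2 of the 47 ADR-only sites and at 5 of the 25 PBS-only sites, against 2.20% and 17.2% in the series, and 3 of the 5 were in *Prkcz*. Within 50 bp of the summit none of the 25 PBS-only sites kept an AP-1 match, against 9.61% in the series, and none a forkhead match, against 10.1%. The sites of a gene share their surroundings, so these counts are descriptions.

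The same counts were made for 21 other genes of these complexes. Together they had 124 ADR peaks and 150 PBS peaks, with more ADR peaks at 3 of the 20 genes with a peak, or 15.0%, fewer at 13, or 65.0%, and the same number at the other 4, against 28.5% with more and 44.2% with fewer over coding genes. The 3 were *Mpp5*, the scaffold that binds the Crumbs tail, with 5 ADR peaks and 1 PBS peak, *Lin7c*, a partner of MPP5, with 6 ADR and 2 PBS peaks, and *Cdc42*, the GTPase that binds PAR6, with 9 ADR and 7 PBS peaks. The largest deficits were at *Llgl2*, a paralog of *Llgl1*, with 9 ADR and 16 PBS peaks, and at *Mark4*, a PAR1 kinase, with 3 ADR and 9 PBS peaks. Another coding gene start was nearer to 12 of 16 sites at *Llgl2*, 6 of 9 at *Mark4* and 5 of 7 at *Lin7c*. At *Cdc42* this held for 4 of 10 sites and at *Mpp5* for 1 of 5. Such sites cannot be assigned to these genes by distance. Of their 93 shared sites 22 were higher, or 23.7% against 27.6% in the series, and 20 lower, or 21.5% against 21.2%, so that both shares were near those of the series. A further 30 sites were ADR only, or 24.2% of their ADR peaks, against 32.3% over the whole ADR list. PBS-only sites numbered 54, from 150 PBS peaks, against 33.1% PBS only over the whole PBS list. Both genes with an excess beside *Cdc42* belong to the Crumbs partners, with 25 ADR and 21 PBS peaks in 6 genes, while the 6 Scribble partners had 39 ADR and 54 PBS peaks and none had more ADR peaks. *Lin7a* had no peak in either list.

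The window edge decides which sites were counted. At *Pard6b*, the nearest site inside the left edge was ADR only with a fold of 10.5, and the nearest outside it, 5388 bp beyond the edge, was ADR only with a fold of 14.3. At *Prkcz*, the nearest site inside the left edge was PBS only with a fold of 6.30, and the nearest outside it had a fold of 38.5 in the ADR list and 69.8 in the PBS list. At *Prkci*, the nearest site inside the right edge was ADR only with a fold of 6.53, and the nearest outside it was ADR only with a fold of 5.87. At *Pard3*, an ADR-only site with a fold of 15.9 lay 12400 bp beyond the gene end and was not counted.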

How the data were processed

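FOXC2 ChIP-seq libraries of FACS-sorted podocytes, with 3 ADR and 3 PBS samples, were sequenced as 50-bp single-end reads. The authors aligned trimmed reads to GRCm38, used the nf-core/chipseq pipeline to call narrow peaks, and pooled the 3 samples per condition. Neither the version of the caller nor its threshold is given in the sources used here. The deposited data are 2 peak lists with 10 columns: positions, a name, a score (a whole number), a strand, the fold enrichment over control (a ratio), the −log10 p-value and −log10 q-value of the caller, and the summit. The deposited fold ratio was used as given, and the smallest deposited −log10 q-value was 1.35 in the ADR list and 1.34 in the PBS list. The deposited score, p-values, names and strands played no role here. The names of the peaks show 1 replicate's label only. The read depth is unknown, intervals cover counting error only, and both lists come from separate peak calls, so that a list's fold depends on its own depth and control.

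ADR and PBS peaks were merged into sites where they overlapped by 1 bp or more. A site took the strongest fold of each list, and its summit was that of the strongest ADR peak, or of the strongest PBS peak where it had no ADR peak. Genes came from GENCODE M21 (21911 coding genes), sequence from the GRCm38 reference of RefSeq. Summits were classed as promoter, else exon, else intron, else intergenic. Sites were named by rule: the strongest shared, ADR-only and PBS-only site of each gene, and the 3 largest and 3 smallest ratios. Other sites and the added sequences were chosen after their values were seen. The genes and lists were chosen with earlier results of these data known. Results at 1 podocyte marker are not reported here. Counts were checked on simulated lists. Python 3.11.15, NumPy 2.4.6, pandas 2.3.3, SciPy 1.17.1, pysam 0.24.0 and matplotlib 3.10.9 were used. Alternatives were other windows, thresholds, overlap rules and scales. The study's WT1 ChIP-seq and RNA-seq are not analysed here.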

Additional observations from a re-analysis of the deposited data

How the results depend on the processing

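Each condition has 1 pooled list, so these values have no replicate error. No paired analysis was possible because the replicates of each condition were pooled into 1 list. Within 10 kb of the start, the polarity genes had 25 ADR and 25 PBS peaks, 3 genes had more ADR peaks, the ADR-only share was 24.0% against 18.4% of all ADR peaks as near to a coding gene start, 7 shared sites were higher and 2 lower, and the median log2 ratio was 0.016. Apart from the ADR-only share, the values within 10 kb have no series value beside them. Within 50 kb of the start without the rest of the gene body, there were 67 ADR peaks and 15 higher sites. Counting only sites nearest to the gene's own start left 4 lower sites. With the 20000 peaks of smallest q in each list, there were 50 ADR and 42 PBS peaks, 13 higher sites and 2 lower. At a ratio of 2, 11 sites were higher, against 12.9% in the series, and 0 lower, for which no series share was taken. Without *Pard3* and *Pard3b*, there were 63 ADR and 57 PBS peaks. Within 50 bp of the summit, a match was found at 9.92% of sites for forkhead, 19.8% for WT1, 2.29% for AP-1 and 0% for LMX1B, and the shares over all sites were 12.8%, 20.96%, 3.92% and 1.48%. The ADR-only share ran between 24.0% and 50.9% over all alternatives, the upper value with an overlap of at least 50% of both peaks, where it was 41.4% in the whole list.

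The difference in number of peaks, ADR minus PBS, changed sign at *Pard3b* within 10 kb (−2), at *Prkcz* within 50 kb without the gene body (1) and by nearest start (2), and at *Pard6b* by nearest start (−2). On the quantile scale, the log2 ratio at the *Llgl1* site near *Mief2* was −0.025. The difference became 0 at *Pard6b*, *Prkcz* and *Scrib* within 10 kb, at *Pard3b* within 50 kb without the gene body, at *Crb3* and *Scrib* by nearest start, and at *Prkcz* with the 20000 peaks of smallest q. That at *Pard6a*, 0 in the full window, was −1 within 10 kb and 1 with those 20000 peaks. The other 161 values for single genes and sites kept their direction, 14 of them with a change beyond the limits set. The causes were not tested. Low folds take few distinct values, and the PBS fold 5.75 alone recurs at 6 PBS peaks of these genes and 910 of the list.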

Other observations

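At the 59 sites of the polarity genes called in both lists, the ADR peak was the wider one at 39, or 66.1%, against 55.0% of all such sites. Of the 131 sites, those nearest to the start of the polarity gene itself numbered 14 of 14 at *Crb2*, 34 of 34 at *Pard3*, 22 of 25 at *Pard6b*, 14 of 19 at *Pard3b*, 4 of 8 at *Prkci*, 3 of 10 at *Prkcz*, 3 of 5 at *Llgl1*, 1 of 4 at *Scrib*, 0 of 7 at *Crb3* and 0 of 5 at *Pard6a*. Distances were taken to the start of the gene record. Other annotated *Prkcz* transcripts started nearer than *Faap20* to the other 7 *Prkcz* sites. By distance from the start of the gene record, sites at the last genes of this list can therefore not be assigned to the polarity gene.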
